A study of Arabidopsis thaliana with 4 samples.

Results

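The transcripts described here were abundant and nearly level in imbibed Arabidopsis thaliana seeds with and without trichostatin A (TSA). They are the 200 probe sets, of 8247 that are not array controls, whose signal was at least 3000 on each of 4 arrays and whose highest signal was at most 2 times the lowest. They were chosen by their signals on all 4 arrays, so their level and their small differences are given as a description, with no test. Surface-sterilized seeds of ecotype Columbia were placed on nylon membranes over Murashige and Skoog agar medium and imbibed for 3 days under 16 h of light, on medium that held TSA for 2 samples and none for the other 2. The replicates of each group came from separate treatments, per the labels. The labels give the TSA concentration as 10 micromolar in one field and as 10 mM in another, and only the TSA samples are said to have been sown without stratification. Total RNA of whole seeds was labelled with biotin and hybridised, 1 array per sample, so fewer cells of a type and less RNA per cell cannot be told apart.

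Histone deacetylases take acetyl groups off histone tails, and TSA blocks many of these enzymes, so chromatin keeps more acetylation. Acetylated chromatin is generally the more open and more readily transcribed form, although genes can go up or down when deacetylases are blocked. A germinating seed leaves its storage programme and builds the machinery of a seedling, and photosynthesis genes come on as the cotyledons green in the light. Housekeeping transcripts, such as those for ion pumps, protein secretion, respiration and protein turnover, are needed throughout and are often used as level references between samples.

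The signals are linear MAS5 intensities, and they compare 1 probe set between arrays, not 1 gene with another. The median signal of all probe sets, controls included, lay between 321.2 and 451.1 on the 4 arrays. Probe sets for mouse and yeast transcripts (8), which plant RNA should not light up, read at most 465.9, and the dimmest signal of any member was 6.53 times that. Of the 200 members, 57 carry 1 gene in the platform's annotation, 3 carry several and 140 have no gene in it. All named genes below are therefore a minority of the members. Because no sequence of a probe or gene was at hand, none is printed.

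Most bright transcripts of untreated seeds were not level across the 4 arrays. At least 3000 on both untreated arrays were 919 probe sets, and the members are 21.8% of them. Of the 919, 145 were below 3000 on TSA replicate 1 alone, 141 on TSA replicate 2 alone and 29 on both TSA arrays. The other 604 were bright on all 4 arrays, and among these 286 had a highest signal more than 2 and at most 4 times the lowest, and 118 more than 4 times. Each TSA array alone took out a similar number of probe sets, and few were low on both.

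**Figure D1:**
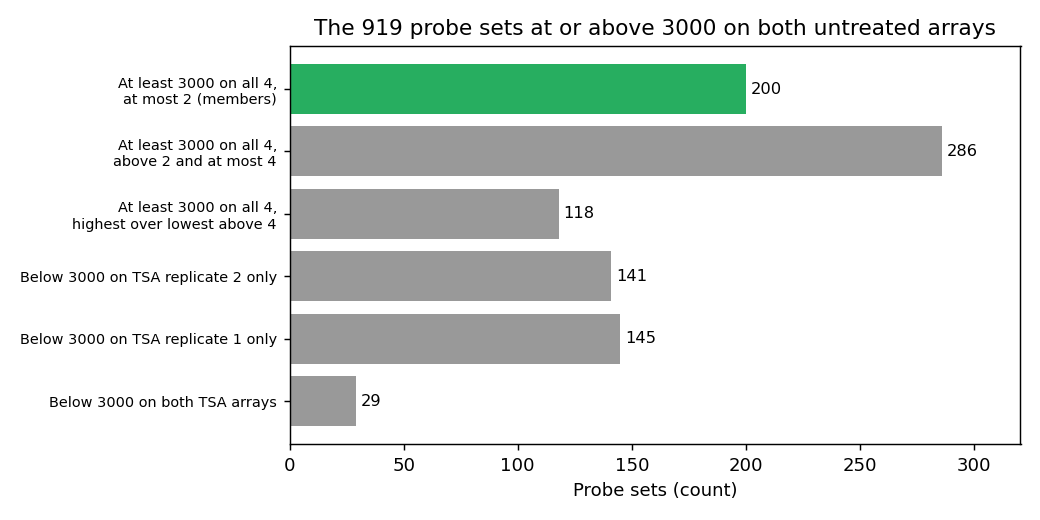
Counts (x axis) of the 919 probe sets with a signal of at least 3000 on both untreated arrays, divided by how they read on the TSA arrays and by the highest over the lowest of the 4 signals. The 200 members (green bar) are outnumbered by the 286 probe sets that were bright on all 4 arrays with a ratio between 2 and 4.

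Of the 6 pairs of arrays, the TSA replicates were within 2-fold of each other least often. Of the 604 probe sets bright on all 4 arrays, 505 read within 2-fold of each other on the untreated arrays and 349 on the TSA arrays. Within a replicate number, the TSA and the untreated array were within 2-fold at 499 for replicate 1 and at 427 for replicate 2. Across replicate numbers they were so at 472 for TSA replicate 1 with untreated replicate 2 and at 357 for TSA replicate 2 with untreated replicate 1. Among the 404 that were bright but not level, TSA replicate 2 held the lowest signal at 210 and TSA replicate 1 the highest at 138. For the members the lowest signal fell on TSA replicate 2 at 68, on untreated replicate 1 at 51, on TSA replicate 1 at 45 and on untreated replicate 2 at 36. With TSA replicate 2 left out of the rule 463 probe sets qualified, with TSA replicate 1 left out 340, with untreated replicate 1 left out 303 and with untreated replicate 2 left out 270. A rule over 3 arrays asks less than one over 4, so each of these counts could only be equal or larger.

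Bright probe sets were level about as often as moderately bright ones. The highest signal was at most 2 times the lowest at 23.2% of the 703 probe sets with a geometric mean signal from 3000 to 10000, at 23.0% of the 265 from 10000 to 30000 and at 24.7% of the 93 above. It was so at 28.7% of the 1306 between 1000 and 3000 and at 25.9% of the 2115 between 300 and 1000. Below 300 the share was 5.31% of 3765. From 300 upwards the share thus stayed between 23.0% and 28.7%.

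Members ranged over more than an order of magnitude in signal. Their geometric mean signals ran from 3301 to 92073, with a median of 8704. The median member signal on TSA replicates 1 and 2 was 8337 and 7473, and on untreated replicates 1 and 2 it was 8481 and 8614. Together the members made up 15.3%, 14.1%, 15.2% and 15.9% of the summed signal of the non-control probe sets, in the same order, although they are 2.43% of those probe sets. TSA replicate 2 had the lowest median and the lowest share, and the other 3 arrays lay close to each other.

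**Figure D2:**
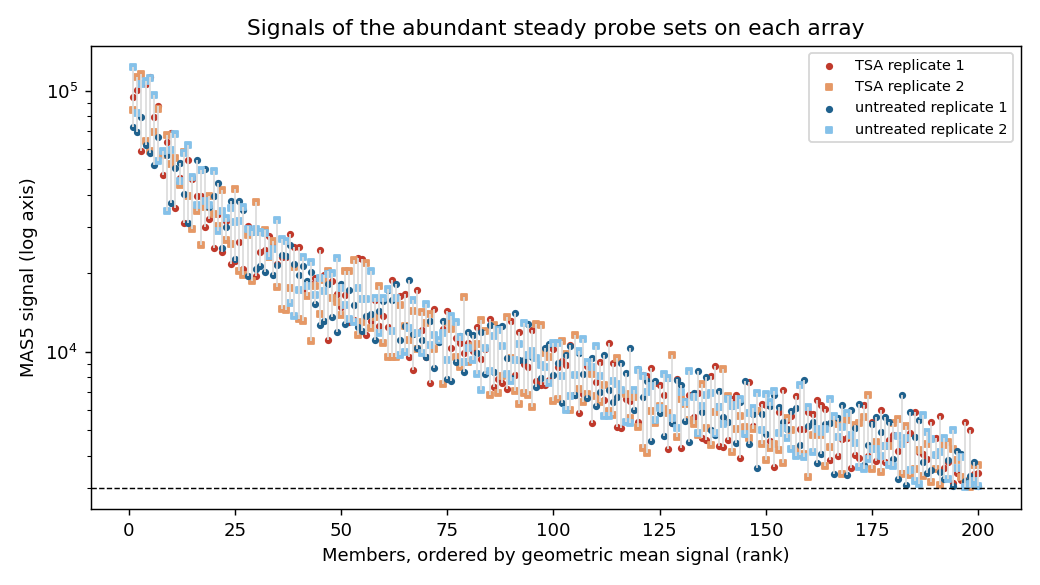
Signal of each of the 200 members on each array (y axis, log scale), ordered by geometric mean signal (x axis, rank), with a grey line from the lowest to the highest signal and the dashed line at the minimum of 3000. The 4 arrays interleave along the whole range, which runs from 3041 to 123271.

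Within the bounds of the rule, members lay on both sides of 0. The median log2 difference, TSA minus untreated, was -0.02, a ratio of geometric means of 0.984. It was 0.00 within replicate 1 and -0.10 within replicate 2. Same-numbered arrays were not treated as pairs. How alike the values within replicates 1 and 2 are, here and below, therefore depends on the numbering. The quartiles of the members were -0.30 and 0.19, and all lay between -0.83 and 0.71, inside the limit of 1 that the rule sets. The mean was higher with TSA at 92 members and lower at 108, and 168 of the 200 stayed within 0.5. Over the 404 bright but not level probe sets the median was -0.42, and over all 8247 it was 0.02.

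The rule holds every pair of arrays to within 2-fold, so the differences between arrays are small by choice and nothing is read from their likeness. The median absolute log2 difference was 0.39 for the TSA replicates and 0.32 for the untreated ones. Between a TSA and an untreated array it was 0.36 for replicate 1 and 0.34 for replicate 2. Across the bright but not level probe sets the same measure came to 1.24 for TSA and 0.58 for untreated replicates.

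No member was called by the test of the whole table. Across 4948 probe sets with a mean signal of at least 282.5, limma called 0 higher and 0 lower with TSA at an adjusted threshold of 0.05 (0% in each direction), with a smallest adjusted p of 0.555, and all 200 members were among those tested. At an unadjusted threshold of 0.05, limma listed 84 as higher and 50 as lower. Both TSA arrays lay above both untreated arrays at 22 members and below both at 44, against 14% and 11.3% of the 4948. The rule used these same values, so nothing is read from that comparison. After median centring, which moved the log2 differences of all probe sets by -0.05 at the median, the counts were 11 and 29. An exact permutation test of 1 probe set, two-sided, cannot give a p below 0.333 with these 4 arrays.

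The members at the edges of the rule were close to probe sets just outside it. The dimmest member signals were 3041 and 3042, and the nearest level probe sets left out had lowest signals of 2976 and 2968. The largest ratios of highest to lowest were 1.9998 and 1.9979 among the members, and the smallest among bright probe sets left out were 2.02 and 2.02. CP1, whose TSA signals were 15604 and 14820 and whose untreated signals were 29225 and 14493, was left out by a single high signal on untreated replicate 1.

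The steadiest transcript of all was that of AT4G19200. It read 11098 and 11019 on TSA replicates 1 and 2, and 10854 and 11059 on untreated replicates 1 and 2, an order kept for every gene below. These 4 values lie within 1.02-fold as deposited, and their log2 difference of 0.01 turned to -0.04 with median centring. That scaling divides each array by its median, from 321.2 to 451.1, and so parts the 4 values further than 1.02-fold. AT5G62350, a protein of the invertase and pectin methylesterase inhibitor family, came next, with 18471 and 16394 on the TSA arrays, 18739 and 17796 on the others and a ratio of 1.14. AT4G01610, a cathepsin B-like cysteine protease, read 27710.1 and 23100 with TSA and 23419 and 23247 without. Its untreated signals nearly coincided and the TSA signals lay on either side of them. AT1G09740, of the universal stress protein family, was the dimmest member by geometric mean, at 3431 and 3685 with TSA and 3068 and 3060 without. The other 6 of the 10 steadiest members have no gene in the annotation and had ratios from 1.19 to 1.22.

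All 10 of the brightest members have no gene in the annotation. The brightest read 94658 and 84578 with TSA and 72821 and 123271 without, and the tenth read 68678 and 52315 with TSA and 37089 and 59108 without. Their log2 differences ranged from -0.18 to 0.57. The largest positive difference of all members was that of probe set 16901_at (log2 0.71), which read 6260 and 5612 with TSA and 3692 and 3563 without. The most negative was that of 15677_s_at, at 9657 and 9539 with TSA and 18208 and 16010.2 without (-0.83), followed by 16935_s_at at 20706 and 19717 with TSA and 34994 and 35849 without (-0.81). In these 3 the groups parted and the replicates were close. The annotation names no gene for them.

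The 57 members with 1 gene fall on 57 different genes, and 45 of them were placed in 11 groups by what the gene is known to do, after the values had been seen. The remaining 12 are given by locus or symbol only. Of the 57, 24 had a positive and 33 a negative log2 difference, with a median of -0.09, and none was called by limma.

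The vacuolar proton pump, or V-ATPase, acidifies the vacuole and the trans-Golgi compartments, and all 4 of its subunit genes among the members had both TSA signals below both untreated ones, which was so at 11.3% of the 4948 probe sets, 22% of the members and 19.6% of the 919 bright on both untreated arrays. AVA-P2, a proteolipid of the proton-conducting ring, read 25006 and 33824 with TSA and 39498 and 49450 without (log2 difference -0.60). AT4G32530, a larger ring proteolipid, read 7835 and 6945 with TSA and 12361 and 12148 without (-0.73), and its close relative AT2G25610 read 4605 and 5088 with TSA and 8004 and 6804 without (-0.61). VHA-A3, the large membrane subunit of the vacuolar pump, read 8738 and 6617 with TSA and 9042 and 10793 without, and here TSA replicate 1 was only just below untreated replicate 1. The log2 difference of VHA-A3 was -0.05 within replicate 1 and -0.71 within replicate 2, and its groups overlapped after median centring.

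Named V-ATPase genes that missed the rule were read beside them, a list made after these values were seen. By symbol or synonym the annotation holds 7 V-ATPase probe sets, 2 of them members. Of the 7, 5 were lower on both TSA arrays, beside the same 11.3% of the 4948 and 19.6% of the 919 bright on both untreated arrays. VHA-C3, another ring proteolipid, missed the rule narrowly with a ratio of 2.03, at 23686 and 20573 with TSA and 37528 and 41708 without. AVA-P1 read 8647 and 14781 with TSA and 22821 and 21440.1 without, and AT4G02620, subunit F, read 8779 and 7891 with TSA and 19816 and 12826 without. For these 3 the log2 differences were -0.84, -0.97 and -0.94. VHA-A1, the isoform of the trans-Golgi network, and VHA-A2, the other vacuolar isoform, were dimmer and their groups overlapped, with log2 differences of -0.23 and 0.15. The ring proteolipid genes are close relatives, and the probe sets of AVA-P2 and VHA-C3 carry _s in their names, so these may read transcripts of the same genes. Which ones each probe set reads was not tested, and no test was made of this group.

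**Figure D3:**
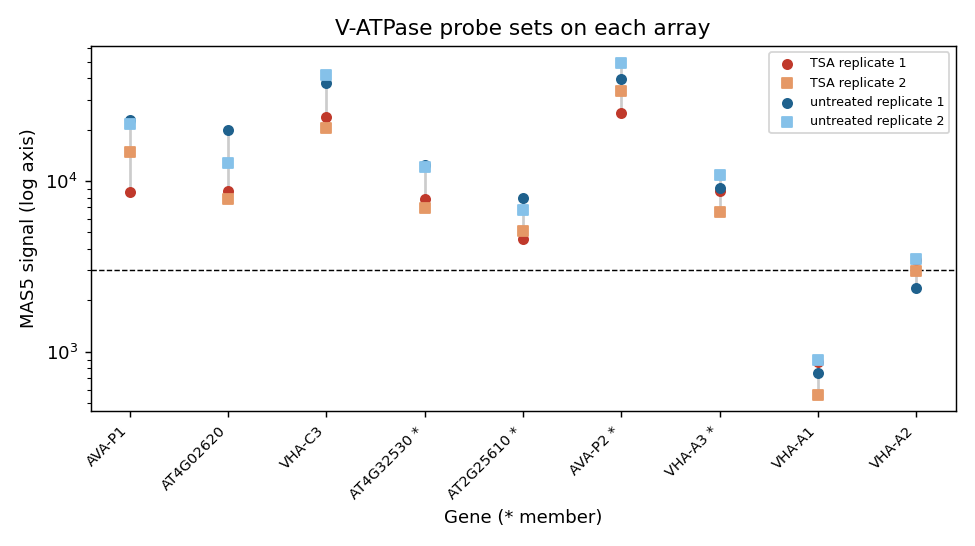
Signal on each array (y axis, log scale) of the 9 V-ATPase probe sets, ordered by log2 difference with TSA, with members marked by an asterisk and the dashed line at 3000. The 9 are the 7 found by name and the members AT4G32530 and AT2G25610. In 7 of the 9 both TSA signals (red and orange) lie below both untreated signals (blue), or in 6 after median centring. AT4G32530 and AT2G25610 were added with their values known, so the count over the 9 is set against no share. Of the 7 found by name it was so at 5, beside 11.3% of the 4948 probe sets and 19.6% of the 919 bright on both untreated arrays. The list was made after the values were seen. In VHA-A1 and VHA-A2 the groups overlap.

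The 8 members of the secretory pathway are level by the rule and say nothing of the rest of that pathway. The coat protein complex I, which forms vesicles at the Golgi, has 2 alpha subunit genes among the members. AT2G21390 read 6795 and 6033 with TSA and 4737 and 8179 without (0.04), and AT1G62020 read 6252 and 4805 with TSA and 4060 and 4930 without (0.29). Proteins enter the endoplasmic reticulum through the Sec61 channel, and AT2G34250, of the SecY family that forms it, read 12216 and 7521 with TSA and 13132 and 11807 without (-0.38). AT2G21160, the alpha subunit of the translocon-associated complex, read 23098 and 14429 with TSA and 23242 and 26459 without (-0.44). For both translocon genes replicate 1 showed almost no difference (-0.10 and -0.01) and replicate 2 a larger one (-0.65 and -0.87). RAB6A, a small GTPase of Golgi traffic, lay the other way, at -0.70 within replicate 1 and 0.00 within replicate 2. Of these 8 genes, 3 were higher and 5 lower in the mean, and the sign of AT2G21390 turned with median centring. AT2G01970, AT2G19790 and AT1G14910 made up the rest, at -0.07, -0.29 and 0.26.

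The 3 members of mitochondrial respiration were close to level in replicate 1 or higher, and lower with TSA in replicate 2. AT4G37830, a cytochrome c oxidase subunit, read 45881 and 29629 with TSA and 46856 and 46895 without. TSA replicate 2 was low and the other signals nearly coincided. SDH3-2, a membrane anchor of succinate dehydrogenase, read 8175 and 4266 with TSA and 6693 and 8105 without. AT1G79010, an iron-sulfur subunit of complex I, read 10612 and 5993 with TSA and 10539 and 6743 without, so it parted the arrays by replicate number more than by treatment. Their log2 differences were -0.35, -0.32 and -0.08.

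The 7 plastid members lay on both sides of 0. ATNTT2, the ATP/ADP translocator of the plastid envelope, read 12443 and 9559 with TSA and 17247 and 17457 without (-0.67). AT2G34590, the E1 beta subunit of plastid pyruvate dehydrogenase, read 8822 and 5850 with TSA and 4797 and 4890.0 without (0.57). The groups parted in both, in opposite directions, though in AT2G34590 they overlapped after median centring. AT2G43030, a plastid ribosomal protein, had -0.47, the sulfite reductase SIR had -0.36 and AT1G56190, a phosphoglycerate kinase, had -0.34. AT2G37220, an RNA-binding protein of the chloroplast, and AT3G11630, a peroxiredoxin, had -0.05 and 0.01, and the second turned negative with median centring. SIR and AT1G56190 were higher with TSA within replicate 1 (0.18 and 0.20) and lower within replicate 2 (-0.90 and -0.89).

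Of the 4 members grouped as regulators, 3 had a positive log2 difference. EIN3, the transcription factor that carries the ethylene signal to the nucleus, read 14276 and 12973 with TSA and 7887 and 9325 without. Both TSA signals were above both untreated ones, with a log2 difference of 0.67, 0.86 within replicate 1 and 0.48 within replicate 2. The A20/AN1 zinc finger proteins, a family linked to stress responses, had 2 members. AT1G51200 read 16402 and 15078 with TSA and 11051 and 9719 without (0.60), and AT4G22820 read 4806 and 5353 with TSA and 3898 and 3645 without (0.43). The groups parted in both, and for AT1G51200 the differences within replicates 1 and 2 were 0.57 and 0.63. AT4G25210, related to the GeBP transcription factors, had -0.11. After median centring the groups stayed apart in 1 of these 4 genes, against 3 as deposited.

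Among genes of RNA and translation, AT4G27130, a translation initiation factor of the eIF1 family, read 16637 and 12573 with TSA and 12563 and 9988 without (0.37), so that the groups barely parted. The alanyl-tRNA synthetase gene ALATS had 0.33 and the RNA-binding protein gene RBP45B 0.18. All 3 were positive under each scaling, and no groups were apart after median centring. In protein turnover, the lid subunit of the proteasome encoded by AT4G24820 had 0.04, or -0.01 with median centring, and the aminopeptidase APM1 had -0.33.

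The cytoskeleton was represented by 2 named members. TUB9, a beta tubulin, read 8731 and 6842 with TSA and 12756 and 9734 without. Its log2 difference was -0.53, with -0.55 and -0.51 within replicates 1 and 2. WLIM2b, an actin-bundling LIM protein, read 11550 and 21875 with TSA and 13668 and 15986 without (0.10), with the TSA signals on either side of the untreated ones. TUB6, another beta tubulin, missed the rule with a ratio of 2.03.

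Metabolic enzymes included AIM1, which works in peroxisomal fatty acid breakdown, at 9189 and 10975 with TSA and 6337 and 8068 without. Both TSA signals were higher, and the log2 difference was 0.49, with 0.54 and 0.44 within replicates 1 and 2. SAMDC, which makes the aminopropyl donor for polyamines, read 22342 and 41900.4 with TSA and 22739 and 31364 without (0.20), level in replicate 1 and higher with TSA in replicate 2. CCS, the copper chaperone of superoxide dismutase, was among the more even at 4680 and 3555 with TSA and 4004 and 4029 without (0.02, or -0.03 with median centring). GLY2, a glyoxalase, had 0.13 and UGT85A2, a glucosyltransferase, -0.09. The cell wall enzyme EXGT-A3 had 0.28.

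Of the stress and defence genes, LCR69, a plant defensin, was the second brightest named member at 39382 and 34553 with TSA and 54178 and 36540 without (-0.27). JAL31, a jacalin-related lectin, read 4267 and 6603 with TSA and 7450 and 6997 without (-0.44). AT2G47710, of the universal stress protein family, had -0.30, with a signal of 10345 on untreated replicate 1 beside 5338 to 6487 on the other 3 arrays. The 12 members with no role given ranged from -0.80 for AT2G29020, at 3601 and 4420.0 with TSA and 6806 and 7100 without, to 0.42 for AT2G23120. In 4 of these 12 both TSA signals were below both untreated ones (AT2G29020, AT5G51400, AT4G31340 and AT2G04280), against 44 of all 200 members and 11.3% of the 4948.

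**Figure D4:**
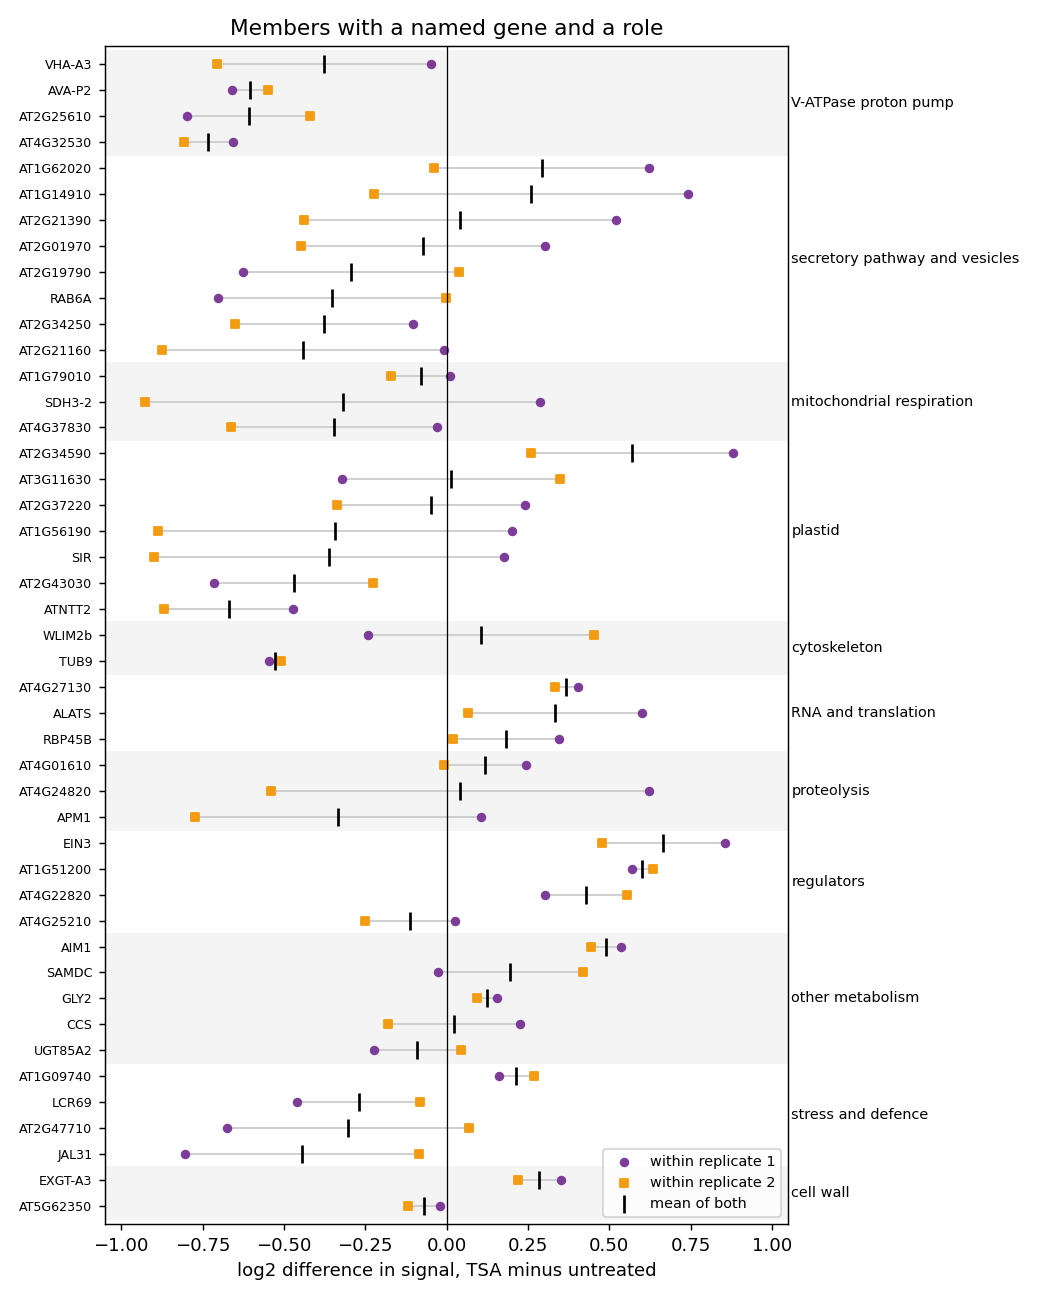
The log2 difference in signal, TSA minus untreated (x axis), of the 45 members with a named gene and a role (y axis), within replicate 1 (purple circles), within replicate 2 (orange squares) and as their mean (black bars). The 4 V-ATPase genes lie left of 0 in both replicates, though VHA-A3 only just so within replicate 1 (-0.05). EIN3 and the A20/AN1 genes AT1G51200 and AT4G22820 lie right of it. Genes of other groups also stay on 1 side, among them ATNTT2, TUB9 and AIM1, and many change side or lie near 0. Another numbering of the arrays would move the circles and squares but not the bars.

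For 7 of the 57 genes the table holds 8 further probe sets, and none of them is a member. Each therefore missed the ratio or the minimum signal, so how even they are is no comparison with the members. For SAMDC the second probe set read 8854 and 21771 with TSA and 303.5 and 16412 without, so a single low signal on untreated replicate 1 gave a ratio of 71.7, against 1.88 for the member. For AT1G79010 the others had ratios of 2.57 and 2.34, for AT2G21160 2.53, for AT2G41410 2.10 and for AT1G14910 2.06. AIM1 and ALATS had a second, dimmer probe set with ratios of 1.51 and 1.54, which failed on the minimum signal alone, beside 1.73 and 1.90 at the members. Their log2 differences were 0.28 and 0.00, beside 0.49 and 0.33 at the members.

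By the suffix of their names the members were like other bright probe sets. Probe sets with _s, which can read several related transcripts, were 34.5% of the members, 33.9% of the 719 other probe sets bright on both untreated arrays and 17.3% of all. Those with a plain _at name were 54.5%, 56.9% and 75.7%. A gene, or several, was annotated for 30% of the members, 37.4% of the 719 and 46.9% of all.

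Of 14 gene lists read by symbol, 8 had any annotated probe set and 6 had none, among them cytosolic ribosomal proteins, seed storage proteins and histone deacetylases. The 8 lists held 34 probe sets, of which 16 were bright on both untreated arrays and 1 was a member, TUB9. A search by symbol misses genes that the annotation gives by locus alone, such as the proteasome member AT4G24820, so these counts cover only the genes with a matching name. Storage proteins, the defining markers of seed tissue, were not read here. None of the 34 was called by limma, which called 0 probe sets in the whole table. Some of the 34, such as that of ACT12, were too dim to be tested.

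The photosynthesis list shows how far bright transcripts could lie from level. None of its 8 bright probe sets was a member, and PSBW and PSAE-1 each have more than 1 of the 8. LHCB4.1, a chlorophyll-binding antenna protein of photosystem II, read 1352 and 105671 on the TSA arrays, far below and far above the untreated signals of 21119 and 19243. PSAE-1, a subunit of photosystem I, read 1257 and 83239 with TSA and 16515 and 14620 without at the brighter of its 2 probe sets. All 8 had their highest signal on TSA replicate 2 and 7 had their lowest on TSA replicate 1, the exception being PSB27. The untreated signals lay between those of the TSA arrays at these 7.

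Histone genes went the other way between the TSA arrays. All 4 bright histone probe sets, none of them a member, had their lowest signal on TSA replicate 2. AT1G09200, a histone H3 gene, read 34545 and 4570 with TSA and 23983 and 15969 without, and HTB2, a histone H2B gene, read 8543 and 1579 with TSA and 6497 and 4388.0 without. The groups of the histone and photosynthesis lists overlapped at every one of these probe sets, so they were neither level nor set apart by treatment.

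Most other markers of the seed programme were below 3000 on at least 1 untreated array, and so outside the rule. Late embryogenesis abundant (LEA) proteins, which protect the drying embryo, have 7 probe sets on the list, with a median log2 difference of 2.47. Both TSA signals were above both untreated ones at 4, against 14% of the 4948 probe sets. Some of these 4 share the symbol LEA, so they are fewer genes than probe sets. LEA4-5 read 51084 and 17332 with TSA and 4019 and 2358 without (3.27). OLEO3, an oleosin that coats the oil bodies of seeds, read 13502 and 1182 with TSA and 1137 and 359.2 without (2.64). In both TSA replicate 1 was far above TSA replicate 2, and the groups of OLEO3 overlapped after median centring and after quantile normalization. The 2 LEA-list probe sets bright on both untreated arrays lay the other way. AT2G46140 read 9410 and 1962 with TSA and 14735 and 5176 without (-1.02), and AT2G44060 read 3451 and 5524 with TSA and 8983 and 6376 without (-0.79). The 3 heat shock probe sets had a median of 1.03 and overlapping groups.

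The array's own plant reference transcripts ran from among the steadier bright probe sets to among the less steady. Of 7 probe sets for actin, GAPDH and ubiquitin, 4 would meet the rule, all 7 being far above 3000. Of the 604 probe sets bright on all 4 arrays, 33.1% met it. GAPDH, a glycolytic enzyme, met it at its 3' probe set (ratio 1.49) and its middle one (1.83) and missed it at its 5' one (3.09). Ubiquitin, the protein tag for degradation, met it at its 3' (1.71) and 5' (1.95) probe sets and missed it at its middle one (2.57). Actin, of the cytoskeleton, missed it with a ratio of 2.16, with TSA signals of 43223 and 19968 on either side of 31112 and 34257 without TSA. Among the 604 probe sets bright on all 4 arrays, 38.2% had a lower ratio than actin, 8.44% than GAPDH 3' and 70.2% than GAPDH 5'. Compared with the members' range of -0.83 to 0.71, the log2 differences of the 7 ran from -0.32 at GAPDH 3' to 0.68 at the middle ubiquitin probe set. All 3 ubiquitin probe sets had both TSA signals above both untreated ones. This was so at 14% of the 4948 probe sets and 5.44% of the 919 bright on both untreated arrays. The 3 belong to 1 control transcript, so they are not 3 separate observations. Their differences were 0.54 at the 3' one, 0.51 at the 5' one and 0.68 at the middle one, and stayed positive under both other scalings. The 3' one read 89447 and 74854 with TSA and 52266 and 60381 without.

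The controls that bear on RNA quality differed between arrays. The signal of the 5' GAPDH probe set over that of the 3' one was 1.55 and 0.543 on TSA replicates 1 and 2, and 0.674 and 0.777 on the untreated ones. For ubiquitin the same quotient was 0.338 and 0.457 with TSA and 0.336 and 0.481 without. The probe set for 25S ribosomal RNA read 1639 and 25345 with TSA and 229.1 and 72299.6 without, and that for 5S ribosomal RNA 197.8 and 798.9 with TSA and 243.9 and 6981 without. On TSA replicate 2, where the members were most often lowest, the GAPDH quotient was the lowest of the 4. The ubiquitin quotient there, 0.457, was not low and lay above those of TSA replicate 1 and untreated replicate 1. The part of RNA quality in the members' values was not tested.

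**Figure D5:**
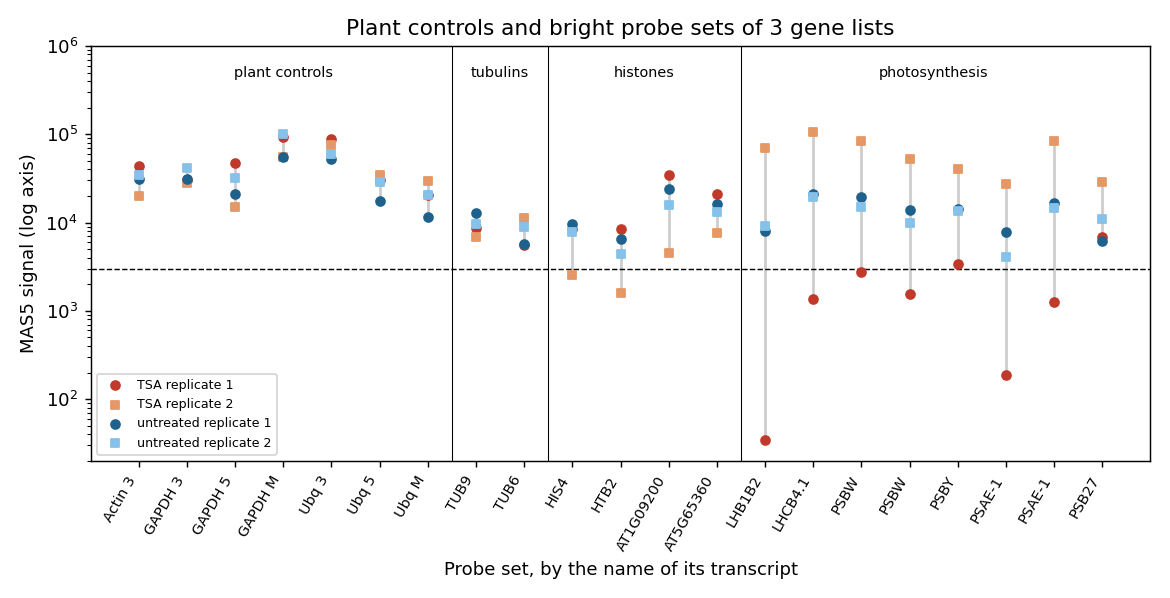
Signal on each array (y axis, log scale) of the 7 plant control probe sets and of the bright probe sets of the tubulin, histone and photosynthesis lists (x axis), with the dashed line at 3000. The controls and tubulins span at most 3.09-fold, the histones are lowest on TSA replicate 2, and the photosynthesis probe sets run from 34.7 on TSA replicate 1 to 105671 on TSA replicate 2.

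Choosing level transcripts on some arrays and reading them on the others gives values that the choice did not use. On the 2 untreated arrays alone, 757 probe sets were at least 3000 and within 2-fold. On TSA replicate 1, 73.3% of these read within 2-fold of their untreated geometric mean, 5.68% higher and 21.0% lower, and on TSA replicate 2 the shares were 59.3%, 11.1% and 29.6%. On the 2 TSA arrays alone 428 qualified, and 79.0% of them on untreated replicate 1 and 86.7% on untreated replicate 2 read within 2-fold of their TSA mean. The shares were larger from TSA to untreated than the reverse, a difference with no test. All 200 members are in both choices.

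The same was done by replicate number. The 699 probe sets level between TSA and untreated in replicate 1 had a median log2 difference of -0.57 in replicate 2, where 63.4% lay within 2-fold, 5.44% higher and 31.2% lower with TSA. The 589 level in replicate 2 had a median of -0.13 in replicate 1, where 72.2% lay within 2-fold, 10.2% higher and 17.7% lower. Those outside 2-fold were more often lower than higher with TSA in both readings. The 919 bright on both untreated arrays had medians of -0.20 within replicate 1 and -0.45 within replicate 2. They were chosen by high untreated signals, a choice that itself favours lower TSA signals, so nothing is read from these medians. Over all 8247 probe sets the median log2 difference was 0.02.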

How the data were processed

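The deposited values are signal intensities per probe set on 4 arrays, which per the submitters' processing notes came from MAS5, with version, scaling target and detection calls not given in the sources used here. Their 2% trimmed mean lay between 1502.56 and 1502.7, so the intensity looks scaled by the authors and was used as deposited. One scaling factor per array leaves differences that depend on brightness. The number of arrays limits the precision, and a replicate is a separate treatment per the labels.

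The 50 control rows of 8297 were kept apart. Ratios and log2 differences of members use no offset. The table-wide fit was limma 3.58.1 in R 4.3.3 on log2(signal + 30.8), without the dimmest 40%. It used an intensity trend, no block and Benjamini-Hochberg adjustment, and was run on simulated data. These had the spread of the untreated replicates on all arrays. They do not cover the TSA replicates, which differed more at the bright but not level probe sets (1.24 against 0.58). Same-numbered arrays were not treated as pairs.

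Of the 8247 probe sets, 3794 have 1 gene in the platform annotation, 70 several and 4383 none. Symbols were updated by gene ID through the RefSeq gene table of TAIR10.1, which holds 3784 of the 3794. Named by rule were the 10 brightest, the 10 steadiest, the 5 most positive and the 5 most negative members (29 in all, 9 with 1 gene) and the nearest on each side of both thresholds. Unnamed ones are given by rank, apart from the IDs of the most positive and the 2 most negative. All other genes were named after their values were seen. Members and lists were chosen with earlier results of these data known.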

Additional observations from a re-analysis of the deposited data

How the results depend on the processing

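The number of members, 200, was 205 after quantile normalization (187 shared), 154 after median centring (112 shared) and 294 with a minimum signal of 2000. It was 126 with a minimum of 5000, 51 with a ratio of at most 1.5 and 408 with a ratio of at most 3, and the last 2 came to 5.55% and 44.4% of the bright untreated probe sets. Leaving out 1 array gave 270 to 463 members, or 23.5% to 50.4%. Their median log2 difference, -0.02, was -0.14 with a ratio of at most 3 and between -0.10 and 0.10 with 1 array left out. It was -0.42 for probe sets chosen on the untreated arrays alone, and 0.01 for those chosen on the TSA arrays alone, an alternative added after the data were seen. Chosen on the replicate 1 arrays and read in replicate 2 it was -0.57, and the reverse gave -0.13. For these moves the cause was not tested. The counts called by limma, 0 higher and 0 lower, were also 0 and 0 with quantile normalization, median centring, both other offsets, both other filters and no intensity trend. With 1 array left out they ran from 0 to 46 higher and from 0 to 134 lower, and the fit without TSA replicate 2, which holds no spread between TSA treatments, was the only one to call any. With the replicate number as a block they were 0 and 0, with a log2 difference of 0.66 for EIN3. The correlation of the TSA and the untreated replicate differences was 0.137 across probe sets, too little with 2 pairs to call the samples paired. Of the 29 members named by rule, 1 changed sign under quantile normalization, 4 under median centring, 6 without untreated replicate 1, 5 without TSA replicate 1, 3 without untreated replicate 2 and 2 without TSA replicate 2.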
